A study of Mus musculus with 8 samples.

Results

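Toll-like receptors are the membrane receptors with which macrophages recognise microbial lipids, proteins and nucleic acids, and the set described here holds 8 of them (*Tlr1*, *Tlr2*, *Tlr3*, *Tlr4*, *Tlr6*, *Tlr7*, *Tlr9* and *Tlr13*) with the co-receptor gene *Cd14* and the adaptor gene *Myd88*. These 10 genes were taken by symbol from a table of 18635 genes, and all 10 were found there. The table came from tumor-educated macrophages (TEMs), which are bone marrow-derived macrophages (BMDMs) kept for 24 h in medium conditioned by AE17 cells, a murine mesothelioma line. Of the 8 samples, 4 were *Phgdh* fl/fl TEMs, in which *Phgdh*, the gene of the first enzyme of serine synthesis, is floxed but intact (control TEMs). The other 4 were *Phgdh* fl/fl *Cx3cr1*-Cre TEMs, which carry the same floxed alleles together with a Cre recombinase driven from the *Cx3cr1* locus on a single allele (PHGDH-deficient TEMs). Per the methods, the donors of the marrow were C57BL/6 littermates of the breeding, aged 6 to 8 weeks for BMDM cultures, and all samples received the conditioned medium. The presence of the Cre, the altered *Cx3cr1* allele and the loss of *Phgdh* go together in this design and cannot be told apart. The submitters call the samples biological replicates without saying whether each came from its own animal, so that the p-values measure the spread between these samples.

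Toll-like receptors work in pairs and in complexes. At the cell surface TLR2 joins TLR1 or TLR6 to bind bacterial lipopeptides, and TLR4 together with MD-2 (gene *Ly96*) binds lipopolysaccharide, which the lipid-anchored protein CD14 hands over to it. In endosomes TLR3 senses double-stranded RNA, TLR7 single-stranded RNA, TLR9 unmethylated CpG DNA and TLR13, a receptor of the mouse, bacterial ribosomal RNA. MyD88 is the adaptor of all of these receptors except TLR3, which signals through TRIF (gene *Ticam1*), and TLR4 uses both adaptors.

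Between 38219563 and 47027420 reads per sample were counted on genes. Values are given as normalized counts, that is reads per gene divided by a size factor of the sample, and levels of different genes are compared as FPKM, reads per kilobase of exon scaled to the total of counted reads, computed here. The genotypes were compared with limma on log2(normalized count + 1) over the 13629 genes whose normalized counts averaged 10 or more. A gene is called where the p-value adjusted by Benjamini-Hochberg over all of these genes is under 0.05. The normalized count of *Phgdh* itself was 117 ± 9.82 in control TEMs and 27.1 ± 9.39 in PHGDH-deficient TEMs (SD, n = 4 each), in the direction the labels give, and 14 to 34 reads of it remained in each PHGDH-deficient sample. All 8 macrophage markers examined (*Adgre1*, *Cd68*, *Csf1r*, *Itgam*, *Fcgr1*, *Mertk*, *Lyz2* and *Spi1*) were abundant, with a summed normalized count between 988259 and 1092873. Of the markers of other cells, the 5 of 6 fibroblast genes with a row in the table summed to between 27.0 and 56.4 per sample. Of the 6 mesothelioma genes 1 had a row, *Upk3b*, with 1.03 to 5.08 normalized counts, so that tumor cells were hardly examined by these markers.

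The genes moved in both directions. *Tlr2*, *Tlr4*, *Tlr7* and *Tlr9* rose by 16.2% to 19.3% in PHGDH-deficient TEMs, *Cd14* fell by 20.1% and *Myd88* fell by 8.70%, whereas *Tlr1*, *Tlr3*, *Tlr6* and *Tlr13* did not pass the test. Thus 6 of the 10 genes were called, 4 of them higher and 2 lower. Among all tested genes 41.0% were called, 20.8% higher and 20.3% lower, and a set of 10 genes is too small to set its count apart from that share. The same 6 genes were called with edgeR and with DESeq2 on the recovered reads, which called 41.1% and 37.2% of all genes. For these 6 genes no sample of a genotype reached into the range of the other, as for 36.7% of all tested genes. Without overlap, an exact permutation of the sample labels (two-sided) must give p = 0.0286, the smallest that 4 against 4 samples allow. It did so for each of the 6 and adds nothing to the lack of overlap. The sizes were moderate as well: the median absolute log2 fold change was 0.17 over the 10 genes, 0.12 over all tested genes and 0.19 over the called genes. Fewer cells of a type that holds such a transcript and less of it per cell cannot be told apart in these bulk samples.

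**Figure D1:**
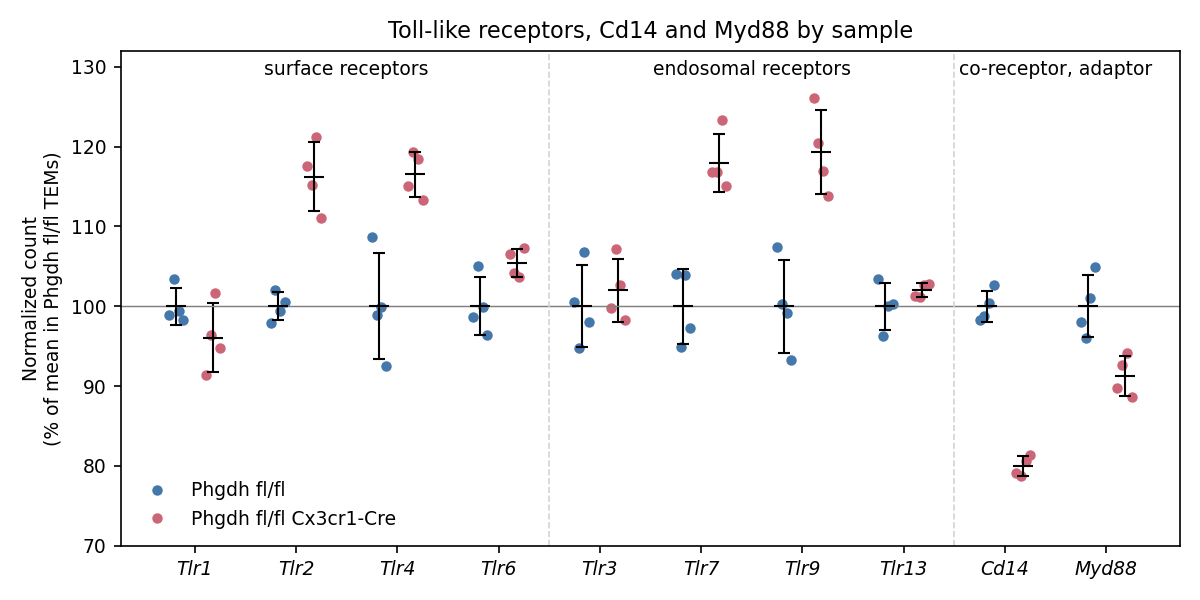
Normalized count of each gene in each sample as a percent of its mean in the 4 control TEM samples (y axis), with the genes on the x axis in their functional groups. Points are samples, blue for control TEMs and red for PHGDH-deficient TEMs, and black bars show the mean ± SD (n = 4). The red points lie above all blue points for *Tlr2*, *Tlr4*, *Tlr7* and *Tlr9*, below them for *Cd14* and *Myd88*, and overlap their range for the other genes, for *Tlr1* through replicate 3 alone.

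Among the surface receptors, *Tlr2* (ENSMUSG00000027995, minus strand of chromosome 3 of mm10, 83836272 to 83841767) had normalized counts of 1682, 1752, 1708 and 1727 in control TEMs and 2019.6, 1978, 2081 and 1906 in PHGDH-deficient TEMs. Each PHGDH-deficient sample lay above each control sample. On the log2 scale the difference was 0.22 with a standard error of 0.03 (limma adjusted p = 1.9e-05). The spread between the control samples, 1.74% of their mean, was below the 2.36% that counting error alone gives at this depth, and that of the PHGDH-deficient samples, 3.68%, was above the corresponding 2.28%.

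The stretch before *Tlr2* is shown because *Tlr2*, the common partner of *Tlr1* and *Tlr6*, was the only member of that trio that was called, and because a motif of the kind bound by NF-kB, the factor that Toll-like receptors activate, was found in it. Of the 250 bases before the RefSeq start of *Tlr2*, those not inside an exon in GENCODE are printed here from the GRCm38.p6 assembly, minus strand, chr3:83841768-83841858, 5′ to 3′, with the match to the motif (GGGA, any 2 bases, T, any base, CC) in capitals.
*Tlr2* promoter: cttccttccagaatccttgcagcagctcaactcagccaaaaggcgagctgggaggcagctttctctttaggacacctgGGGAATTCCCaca
On either strand this motif was found in 3.33% of 32851 RefSeq promoters of the same length, and the promoter of *Tlr3* held it as well. A match is a run of letters, and binding was not measured.

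*Tlr4* (ENSMUSG00000039005, plus strand of chromosome 4, 66827584 to 66930284), the lipopolysaccharide receptor, had normalized counts of 4896, 4458, 4501 and 4171 in control TEMs. In PHGDH-deficient TEMs they were 5182, 5377, 5338 and 5105. The genotypes did not overlap, although control replicate 1 came close to the lowest PHGDH-deficient sample, and the control samples spread more (6.61% of their mean) than the PHGDH-deficient ones (2.45%). The difference of 0.22 on the log2 scale had a standard error of 0.04 (limma adjusted p = 3.1e-05) and stayed between 0.19 and 0.26 whichever sample was omitted.

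*Tlr1* (ENSMUSG00000044827, chromosome 5, 64924679 to 64933563) and *Tlr6* (ENSMUSG00000051498, chromosome 5, 64952031 to 64960097), the alternative partners of TLR2, are neighbours on the minus strand with 18.5 kb between them. *Tlr1* had normalized counts of 2312, 2417, 2324 and 2295 in control TEMs and 2134, 2254, 2377 and 2215 in PHGDH-deficient TEMs. The genotypes overlapped through PHGDH-deficient replicate 3, and the log2 fold change of -0.06 (95% interval -0.13 to 0.01) did not pass (limma adjusted p = 0.174). *Tlr6* had 702, 747, 711 and 686 against 758, 741, 738 and 763, where control replicate 2 lay within the PHGDH-deficient samples. Its log2 fold change of 0.08 (95% interval -0.02 to 0.17) did not pass either (limma adjusted p = 0.178). The interval of *Tlr1* leaves out a rise of 0.22, the estimate for *Tlr2*, and so does that of *Tlr6*, although a smaller rise of *Tlr6* or fall of *Tlr1* lies within them. The estimate for *Tlr2* has its own 95% interval, 0.15 to 0.29, which overlaps that of *Tlr6*. Whether these genes differed in their change was not tested.

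The reads of *Tlr1* and *Tlr6* cannot be wholly separated. Of the distinct 75-base windows of their GENCODE transcripts, 75 bases being the read length, 10.3% of those of *Tlr1* occurred in *Tlr6* and 9.25% of those of *Tlr6* in *Tlr1*, and how the counting treated such reads is not given in the sources used here. The longest identical run, 229 bases, lies in coding sequence of both genes, at chr5:64925537-64925765 in *Tlr1* and at chr5:64953828-64954056 in *Tlr6*, both on the minus strand of mm10. It is printed 5′ to 3′ and, being identical throughout, has no letters in capitals.
*Tlr1* and *Tlr6* shared run: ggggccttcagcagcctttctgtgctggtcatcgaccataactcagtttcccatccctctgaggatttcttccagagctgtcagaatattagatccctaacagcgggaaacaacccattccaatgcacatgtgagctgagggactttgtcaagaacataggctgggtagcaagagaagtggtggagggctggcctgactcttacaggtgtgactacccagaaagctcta
No 75-base window of *Tlr2*, *Tlr4*, *Tlr7*, *Tlr9*, *Tlr13* or *Cd14* occurred in a transcript of another gene, so that this limit was not found for these 6 genes. Inexact matches and sequence outside annotated transcripts were not searched.

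Among the endosomal receptors, *Tlr7* (ENSMUSG00000044583, minus strand of the X chromosome, 167304929 to 167330558) had normalized counts of 11237, 10241, 11219.8 and 10502 in control TEMs. In PHGDH-deficient TEMs they were 12619.7, 12617, 13313 and 12420.4. All PHGDH-deficient samples lay above the highest control sample, replicate 1. The estimate on the log2 scale was 0.24 with a standard error of 0.03 (limma adjusted p = 1.4e-06), the smallest adjusted p among the receptors that rose.

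*Tlr9* (ENSMUSG00000045322, plus strand of chromosome 9, 106222598 to 106226883) had normalized counts of 2012, 1879, 1857 and 1746 in control TEMs and 2362, 2257, 2189.8 and 2132 in PHGDH-deficient TEMs. The genotypes did not overlap, and the spread within each of them was 5.83% and 4.42% of the mean. Its estimate of 0.26 on the log2 scale, with a standard error of 0.04 (limma adjusted p = 2.4e-05), was the highest of the 10 genes, and 22.0% of all tested genes had a larger absolute value. *Tlr9* lies on the chromosome of *Cx3cr1*, at a distance of 13.7 Mb.

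The promoter of *Tlr9* is shown as that of the highest member. The 250 bases before its RefSeq start are printed from GRCm38.p6, plus strand, chr9:106222348-106222597, 5′ to 3′, with the match to GAGGAA, a core recognised by the myeloid factor PU.1, in capitals.
*Tlr9* promoter: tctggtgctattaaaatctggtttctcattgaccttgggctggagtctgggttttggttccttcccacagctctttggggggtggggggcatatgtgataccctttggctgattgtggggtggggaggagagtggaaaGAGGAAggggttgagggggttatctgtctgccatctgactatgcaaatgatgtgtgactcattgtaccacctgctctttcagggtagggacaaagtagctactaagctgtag
On either strand that core was found in 23.3% of the 32851 promoters, among them those of *Tlr1* and *Tlr13*, and neither the NF-kB-type motif nor the interferon-response-type motif (GAAA, any 2 bases, GAAA) was found in this window. *Spi1*, the gene of PU.1, was itself lower in PHGDH-deficient TEMs, by a log2 fold change of -0.21 (limma adjusted p = 3.4e-07). Promoters of 7 of the 10 genes were found in the RefSeq table. The remaining 3 are *Tlr4*, *Tlr7* and *Cd14*.

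*Tlr3* (ENSMUSG00000031639, minus strand of chromosome 8, 45395665 to 45411080) had normalized counts of 967, 911, 1027.5 and 943 in control TEMs and 960, 1031, 988 and 945 in PHGDH-deficient TEMs. The samples were fully mixed, and the log2 fold change was 0.03 (95% interval -0.06 to 0.12, limma adjusted p = 0.642). *Tlr3* shares 381 exonic bases, 7.32% of its exon length, with the antisense gene *Gm45542*, which is not listed in the table. *Tlr13* (ENSMUSG00000033777, plus strand of the X chromosome, 106143204 to 106160493) had 34398, 32009, 33272 and 33350.5 against 33695, 33629, 34157 and 34182. Its samples overlapped because control replicate 1 was the highest of all 8, and the log2 fold change was 0.03 (95% interval -0.02 to 0.08, limma adjusted p = 0.335). The interval of *Tlr13* leaves out the estimates found for *Tlr7* and *Tlr9*, while quantile normalization, an alternative scaling, gave 0.08 and a call (limma adjusted p = 0.00706).

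*Tlr7* and *Tlr13* are X-linked, so the sex-linked genes were examined beside them. The Y-linked gene *Ddx3y* was counted in all samples, between 5773 and 6381 normalized counts, with *Eif2s3y*, *Kdm5d* and *Uty* abundant as well. *Xist*, the RNA of the inactive X chromosome, lay between 0 and 8.59 in control TEMs and between 22.4 and 43.6 in PHGDH-deficient TEMs, few reads in either case. Of these 5 sex-linked genes, 2 were called higher and 1 lower in PHGDH-deficient TEMs, against 20.8% and 20.3% of all tested genes. For 3 of the 5 all PHGDH-deficient samples lay above all control samples, and for 1 below, against 18.4% and 18.2% of all tested genes. The part of these genes in the values of *Tlr7* and *Tlr13* was not tested. *Tlr8*, the X-linked neighbour in function that is not in the set, had 6931 ± 431 (SD, n = 4) in control and 7321 ± 248 (SD, n = 4) in PHGDH-deficient TEMs and was not called (log2 fold change 0.08, limma adjusted p = 0.0681).

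*Cd14* (ENSMUSG00000051439, minus strand of chromosome 18, 36725067 to 36726798) was both the most abundant and the most changed of the 10 genes. Its normalized counts were 43659.9, 43922, 44615 and 45609.9 in control TEMs and 35165, 34973, 35818 and 36175 in PHGDH-deficient TEMs. The genotypes were far apart, with a gap wider than the range within either. The estimate on the log2 scale was -0.32 with a standard error of 0.02 (limma adjusted p = 1.9e-10), and 16.0% of all tested genes had a larger absolute value. It stayed between -0.33 and -0.31 whichever sample was omitted. CD14 also serves as a marker of monocytes and macrophages, and of the 8 macrophage markers 4 were called lower (*Fcgr1*, *Itgam*, *Spi1* and *Adgre1*) and 0 higher, with a median log2 fold change of -0.06. *Fcgr1*, a gene of the high-affinity Fc receptor, fell by 0.40 on the log2 scale, whereas *Csf1r* (-0.02) and *Lyz2* (-0.03) did not pass. The part of these markers in the value of *Cd14* was not tested.

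*Myd88* (ENSMUSG00000032508, minus strand of chromosome 9, 119335934 to 119341411) had normalized counts of 2625, 2571, 2706 and 2809 in control TEMs and 2404, 2482, 2519 and 2374 in PHGDH-deficient TEMs. The genotypes did not overlap, but the nearest samples, control replicate 2 and PHGDH-deficient replicate 3, were close. The estimate of -0.13 on the log2 scale had a standard error of 0.03 (limma adjusted p = 0.00241), and 47.6% of all tested genes had a larger absolute value. Across the alternatives the adjusted p reached at most 0.0256.

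*Myd88* lies 0.560 Mb from the annotated span of *Cx3cr1*, the gene at which the Cre is inserted, and *Cx3cr1* itself fell by 0.70 on the log2 scale. Of the 18 tested genes within 1 Mb of *Myd88*, *Cx3cr1* among them, 4 were called higher and 3 lower. This share of 38.9% stands beside 41.0% of all tested genes, and the median log2 fold change was 0.03. Between *Myd88* and the annotated span of *Cx3cr1* there were 3 tested genes, of which only *Acvr2b* was called (0.43, limma adjusted p = 0.033). Its samples overlapped, with 62.0 to 83.7 normalized counts in control and 81.3 to 144 in PHGDH-deficient TEMs, where replicate 4 was the highest. *Wdr48*, which reaches into the annotated span of *Cx3cr1* and is not among the 3, was called higher (0.07, limma adjusted p = 0.028). *Gorasp1*, *Ttc21a* and *Csrnp1* lie inside that span and are not among the 3 either. Of these, *Ttc21a* was called higher (0.32, limma adjusted p = 0.014), and *Gorasp1* and *Csrnp1* were not called. The called neighbours lay in both directions, and the part of the *Cx3cr1*-Cre allele in their values or in that of *Myd88* was not tested. *Myd88* further shares 290 exonic bases, 11.3% of its exon length, with *Acaa1a* on the opposite strand. *Acaa1a* was not called (log2 fold change 0.04). The library kit keeps strand, but the strand setting of the counting is not given in the sources used here, and without it reads from the shared bases could fall to either gene.

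The stretch before *Myd88* is shown because it is the other member that fell and because its promoter, unlike those of *Tlr2* and *Tlr9*, held the interferon-response-type motif, in capitals below. It is the part of the 250 bases before the RefSeq start that lies before the first exonic base there, inside the annotated span of the gene since GENCODE places the outer end of *Myd88* further upstream, on the minus strand of GRCm38.p6, chr9:119340042-119340268, 5′ to 3′.
*Myd88* promoter: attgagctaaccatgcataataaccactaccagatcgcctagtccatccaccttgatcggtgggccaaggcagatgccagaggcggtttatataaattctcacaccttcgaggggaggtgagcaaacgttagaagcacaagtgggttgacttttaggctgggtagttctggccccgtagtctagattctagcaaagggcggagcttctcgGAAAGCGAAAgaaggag
On either strand this motif was found in 2.98% of the 32851 promoters, and that of *Tlr6*, which was not called, held it as well.

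**Figure D2:**
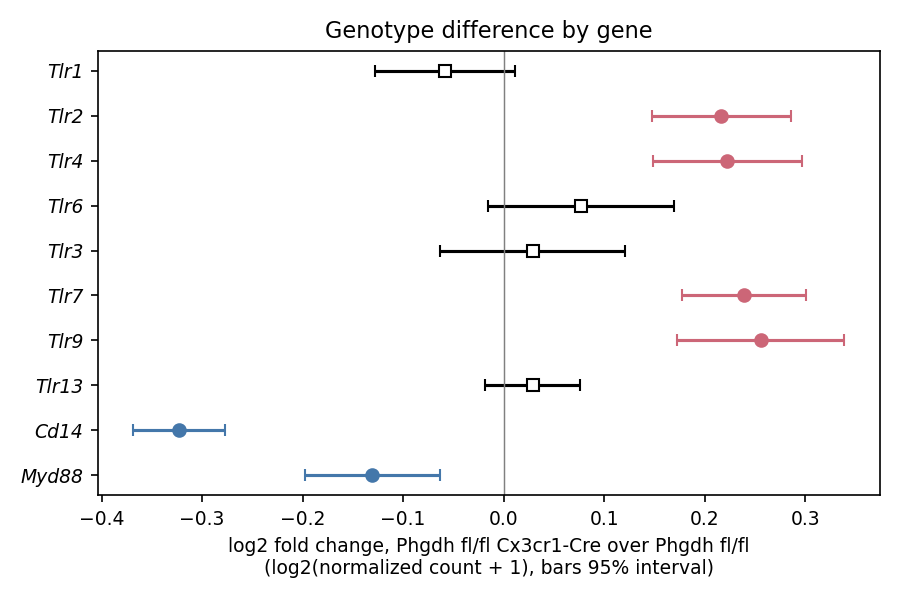
Log2 fold change of each gene (PHGDH-deficient over control TEMs, limma on log2(normalized count + 1), x axis) with its 95% interval as a bar. Filled red circles were called higher, filled blue circles called lower, and open squares not called. The intervals of *Tlr2*, *Tlr4*, *Tlr7* and *Tlr9* lie between 0.15 and 0.34, that of *Cd14* between -0.37 and -0.28, and those of the open squares include 0.

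Per exon length the 10 genes spanned a wide range. In control TEMs *Cd14* stood at 592 ± 10.8 FPKM, *Tlr13* at 178 ± 5.28, *Tlr7* at 61.1 ± 2.85, *Myd88* at 24.0 ± 0.897 and *Tlr4* at 18.7 ± 1.26 (SD, n = 4 each). *Tlr1* followed at 16.1 ± 0.389, *Tlr2* at 13.1 ± 0.229, *Tlr9* at 12.4 ± 0.740, *Tlr6* at 4.41 ± 0.164 and *Tlr3* at 4.26 ± 0.214 (SD, n = 4 each). By the mean over all 8 samples, *Cd14* was more abundant than all but 0.389% of the tested genes and *Tlr13* than all but 1.45%, whereas *Tlr6* and *Tlr3* lay in the middle. In control TEMs neighbours in this order were separated in all samples except *Tlr2* from *Tlr9* and *Tlr6* from *Tlr3*. In PHGDH-deficient TEMs the ranges of *Myd88* (21.5 to 22.8 FPKM) and *Tlr4* (21.4 to 22.6 FPKM) met, and those of *Tlr1* (14.8 to 16.6 FPKM), *Tlr2* (14.7 to 16.1 FPKM) and *Tlr9* (14.3 to 15.8 FPKM) were no longer apart.

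**Figure D3:**
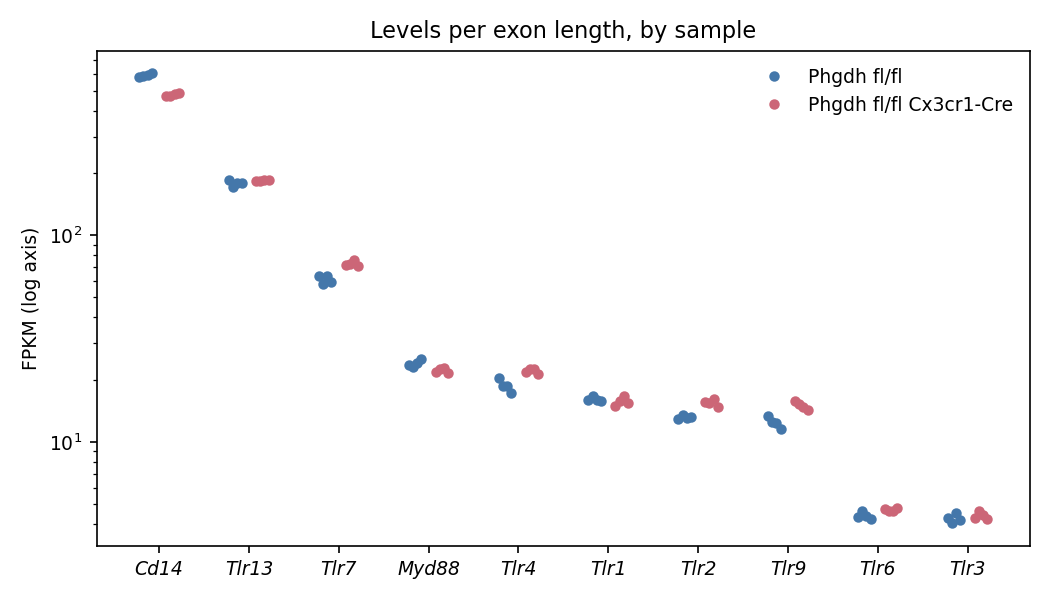
FPKM of each gene in each sample on a logarithmic y axis, with genes ordered by their mean over all 8 samples on the x axis. Points are samples, blue for control and red for PHGDH-deficient TEMs. *Cd14* lies highest, *Tlr13* and *Tlr7* follow, and the red points of *Tlr1*, *Tlr2* and *Tlr9* share a range.

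Summed over the 8 receptors, the level was 308 ± 8.65 FPKM in control and 334 ± 4.59 FPKM in PHGDH-deficient TEMs (SD, n = 4 each). *Tlr13* made up 57.4% to 58.7% of this sum in control TEMs and 54.4% to 55.9% in PHGDH-deficient TEMs. The share of *Tlr7* went the other way, with 19.3% to 20.4% against 21.4% to 22.4%. Among these 8 receptors, that for bacterial ribosomal RNA thus had the largest share in both genotypes, a smaller one in PHGDH-deficient TEMs. The level of *Tlr13* itself did not fall, with 178 ± 5.28 FPKM in control and 184 ± 1.64 FPKM in PHGDH-deficient TEMs (SD, n = 4 each). Its share was smaller because the sum was larger. The sum leaves out *Tlr8*, which is not a member. *Tlr8* stood at 44.6 ± 2.82 FPKM in control and 47.6 ± 1.72 FPKM in PHGDH-deficient TEMs (SD, n = 4 each). With it in the sum, every share would be smaller.

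Because proteins of the surface receptors act in pairs or complexes, the ratio of partner transcripts was taken in each sample, as a description without a test. The ratio of *Tlr1* to *Tlr2* in FPKM was 1.23 ± 0.0203 in control TEMs and 1.01 ± 0.0421 in PHGDH-deficient TEMs (SD, n = 4 each), where the partners were thus near parity, and its samples did not overlap. The ratio of *Tlr6* to *Tlr2* was 0.335 ± 0.00994 in control and 0.304 ± 0.0152 in PHGDH-deficient TEMs (SD, n = 4 each), and its samples overlapped. The levels of *Tlr1* and *Tlr6* carry the limit of shared reads given above, so both ratios depend on how such reads were counted. The ratio of *Cd14* to *Tlr4* changed the most, from between 28.6 and 35.1 in control TEMs to between 20.9 and 22.7 in PHGDH-deficient TEMs, since the co-receptor fell and the receptor rose. *Ly96*, the gene of MD-2, had 854 ± 22.6 normalized counts in control and 860 ± 37.5 in PHGDH-deficient TEMs (SD, n = 4 each), and its ratio to *Tlr4* overlapped between the genotypes (0.927 to 1.14 against 0.838 to 0.965). *Tlr7* and *Tlr9*, set side by side as receptors for nucleic acids and not as partners, both rose. Their ratio was 4.92 ± 0.256 in control and 4.86 ± 0.269 in PHGDH-deficient TEMs (SD, n = 4 each).

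**Figure D4:**
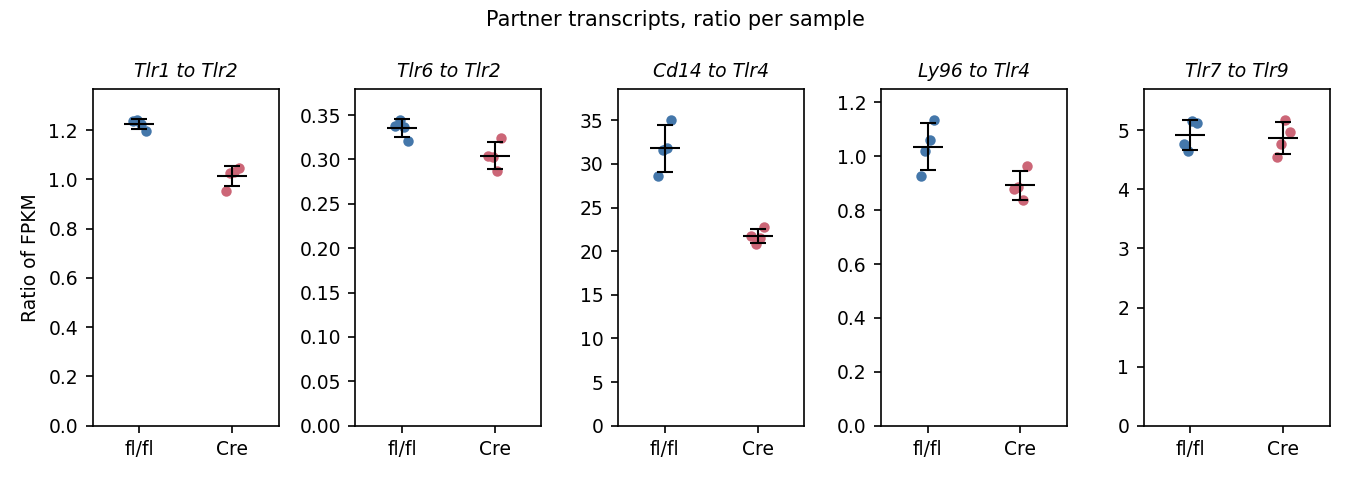
Ratio of the FPKM of partner transcripts, and of *Tlr7* to *Tlr9*, which are not partners, in each sample (y axis, starting at 0). Control TEMs are blue (fl/fl) and PHGDH-deficient TEMs red (Cre), with the mean ± SD in black (n = 4). The genotypes are apart for *Tlr1* to *Tlr2* and for *Cd14* to *Tlr4*, and overlap in the other 3 panels.

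The other genes of Toll-like receptor signalling, taken from lists by known role, also moved in both directions. Of 94 genes listed, 92 were in the table and 89 were tested, of which 29 were called higher and 16 lower. Their median log2 fold change was 0.04 against -0.0018 over all tested genes. Of all tested genes 20.8% were called higher and 20.3% lower. The counts of the single lists below are to be read beside these shares and were not tested against them. None of the remaining receptors with a row in the table was called: *Tlr8* did not pass as given above, *Tlr5*, the flagellin receptor, had 25 to 49 reads per sample (log2 fold change 0.17, limma adjusted p = 0.568), and *Tlr11* lay below the filter with 2.10 ± 1.40 and 2.86 ± 0.552 normalized counts (SD, n = 4 each). *Tlr12* was not analysed here. Of the 11 accessory proteins and chaperones, 2 were higher and 5 lower. *Ly86*, the partner of the receptor-like protein CD180, was the highest (0.14, limma adjusted p = 0.00353) and *Cd36*, a scavenger receptor that also serves TLR2, the lowest (-0.45, limma adjusted p = 5.6e-12). *Unc93b1*, whose product carries the endosomal receptors out of the endoplasmic reticulum, had a log2 fold change of -0.09 (limma adjusted p = 0.00147), opposite in sign to *Tlr7* and *Tlr9*.

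Among the 5 other adaptors only *Ticam1*, the gene of TRIF, was called (0.11, limma adjusted p = 0.0241), in the direction opposite to *Myd88*. *Tirap*, which brings MyD88 to the surface receptors, had a log2 fold change of -0.01 (limma adjusted p = 0.931). Of the 22 kinases and components of the ubiquitin machinery, 7 were higher and 2 lower, from *Peli3*, a ubiquitin ligase of the Pellino family (0.54, limma adjusted p = 1.6e-05), to *Ube2n*, the E2 enzyme that acts with TRAF6 (-0.12, limma adjusted p = 0.0311). *Irak4*, the kinase that binds MyD88, was the other gene called lower (-0.11), and *Traf3*, which links the endosomal receptors to interferon induction, rose by 0.27. Of the 5 interferon regulatory factors, a short list, 3 were lower and 0 higher, against 20.3% and 20.8% of all tested genes. The log2 fold changes were -0.33 for *Irf5*, which acts downstream of MyD88 (limma adjusted p = 1.7e-10), -0.20 for *Irf8* and -0.11 for *Irf3*.

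Of the 15 negative regulators 5 were higher and 4 lower. *Otud7b*, a deubiquitinase, was the highest (0.26, limma adjusted p = 5.6e-06) and *Nfkbia*, the gene of an NF-kB inhibitor and itself an NF-kB target, the lowest (-0.21, limma adjusted p = 3.3e-05). Of the 5 tested IL-1 family receptors that signal through MyD88, 2 were higher, with *Il1r1* rising from 139 ± 15.9 to 221.5 ± 5.33 normalized counts (SD, n = 4 each, log2 fold change 0.67, limma adjusted p = 4.9e-06) and *Il1rl2* by 0.18. The classical targets had the highest median of these lists. Of 13 tested, 9 were higher and 0 lower, against 20.8% and 20.3% of all tested genes, with a median log2 fold change of 0.50. *Il6* was the highest (0.92, limma adjusted p = 0.00568) with 19.7 ± 5.99 and 37.7 ± 9.79 normalized counts (SD, n = 4 each), and *Ccl4* the lowest of those called (0.18, limma adjusted p = 0.000132). *Tnf* (-0.05), *Il10* (-0.02), *Cxcl2* (0.07) and *Cxcl10* (-0.07) were not called, and *Ifnb1* lay below the filter. *Ccl5*, *Cxcl1*, *Nos2* and *Cd36* were named by the study for these same samples. It also reported for them that an inflammatory response gene set was raised in PHGDH-deficient TEMs. The direction of these 4 genes and of the other classical targets is therefore not independent evidence.

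**Figure D5:**
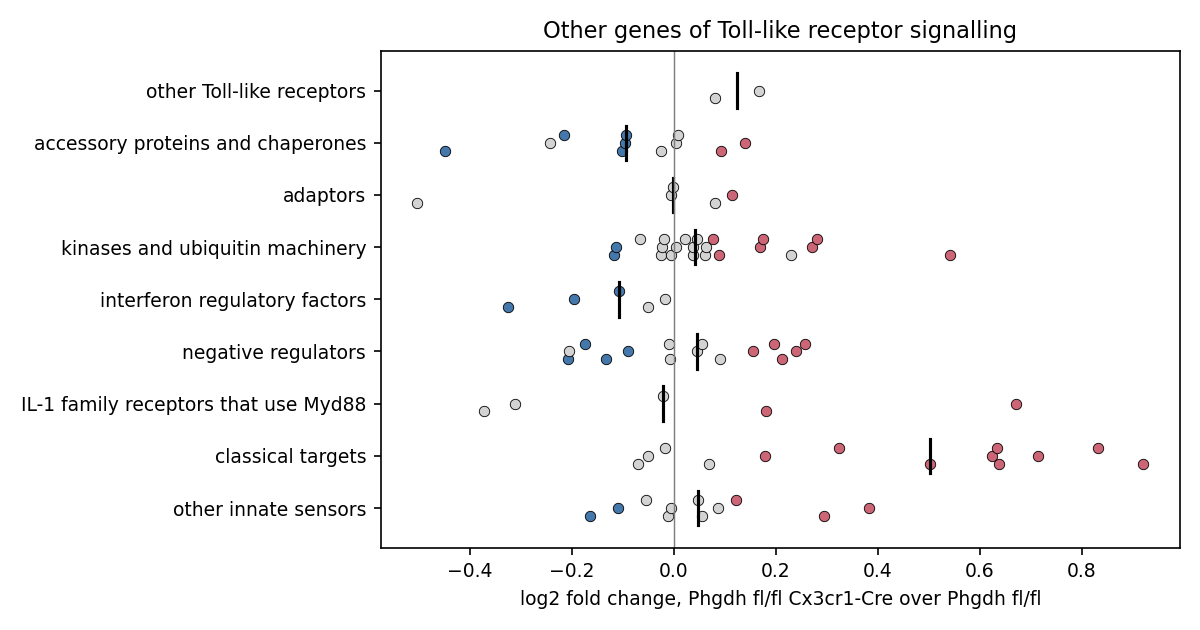
Log2 fold change (PHGDH-deficient over control TEMs, x axis) of the tested genes of each list (y axis). Points are genes, red where called higher, blue where called lower and grey where not called, and black bars are list medians. The classical targets lie furthest to the right with a median of 0.50, and the interferon regulatory factors to the left with a median of -0.11.

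The genes whose pattern over the 8 samples was nearest to that of *Cd14*, by the root mean square difference of log2 values centred on the control mean, were *Clic1* (0.021), *Nap1l1* (0.022) and *Elk3* (0.023), among 5367 genes with at least 50% of its absolute fold change. For *Tlr9* they were *Zbtb39* (0.029), *Tcp11l1* (0.032) and *Otud7b* (0.036), among 6597 genes. *Otud7b* is also the negative regulator named above.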

How the data were processed

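RNA of 8 TEM samples was sequenced by the authors as single-end 75-base reads, mapped to mm10 with TopHat2, counted per gene with HTSeq 0.6 and normalized with DESeq2. The deposited sample values are a signal per gene, read counts divided by a size factor (0.889 to 1.09) and not divided by gene length. The 6 deposited columns of the authors' comparison (mean, log2 fold change, its error, test statistic and p-values) were not used. Whole reads were recovered for 100% of 144353 values above 0, within 0.01 of a read. On these reads edgeR 4.0.16 called 5608 of 13629 genes and DESeq2 1.42.0 called 5066 of 13626.

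The genotypes were compared with limma 3.58.1 (eBayes with trend, two-sided) in R 4.3.3 on log2(normalized count + 1), with a mean of at least 10 as filter. The fits were tested on simulated data. Exon lengths, positions and transcripts came from GENCODE M21, promoters from RefSeq (GRCm38.p6). Searches of windows and motifs were run in Python 3.11.15. *Mb21d1* and *Tmem173* were matched through their present symbols *Cgas* and *Sting1*.

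The genes named are the 10 members, *Phgdh*, *Cx3cr1*, all further Toll-like receptors, the highest and lowest called gene of each list and of the neighbours of *Myd88*, and the 3 genes nearest in pattern to the highest and the lowest member. Further list genes, neighbours and markers were named after their values were seen. The members and lists were chosen with earlier results of these data known. Replicate numbers were not taken to pair the samples. The correlation of same-numbered deviations lay between 0.0628 and 0.126 and exceeded 0.1 in 1 of 4 pairs. For differently numbered samples it lay between -0.124 and 0.135. These values do not settle whether there was a weak pairing.

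Alternatives were another pseudocount, other filters and scalings, eBayes without trend, a replicate block, each sample left out, edgeR, DESeq2, log2(FPKM + 1) and another window length.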

Additional observations from a re-analysis of the deposited data

How the results depend on the processing

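The 10 fold changes were recomputed under 18 alternatives each, 180 values in all. In 179 the direction and the side of the threshold were as reported. The exception was *Tlr13*, which passed with quantile normalization. The number of members called was 6 throughout, except 7 with quantile normalization, and 38 to 47 genes of the pathway lists were called against 45. With the replicate number as a replicate block, 6 members were called and 5597 genes over all. No call of a member changed under that block, and it is given as a check only, since the numbers were not found to pair the samples. Scaling to total reads gave 3146 genes higher and 2450 lower, and quantile normalization 2658 and 2897, against 2830 and 2764. Over all genes, leaving out a sample gave 4967 to 5944 calls against 5594, and the ratio of *Phgdh* between the genotypes, 0.231, stayed between 0.208 and 0.268. The median of all tested genes lay between -0.01 and 0.01 under every scaling. With windows of 50 bases in place of 75, the share of windows found in another gene rose to 15.4% for *Tlr1*, 12.3% for *Tlr6*, 7.42% for *Myd88*, 5.30% for *Tlr3* and 0.216% for *Tlr4*. Depth limits *Tlr6* and *Tlr3* the most, with 674 to 1040 reads per sample and a counting error over 3% of the mean. No sample of a member, *Phgdh* or *Cx3cr1* stood apart from the other 3 of its genotype by Dixon's test at its 95% value. Over all tested genes, however, control replicate 1 lay further from the other controls (chi-square per gene 5.40 to 6.20) than these from one another (2.49 to 3.83). Leaving it out gave the 5944 calls, with 6 members called.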

Other observations

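Innate sensors outside the Toll-like receptor family were listed for comparison and counted among the pathway lists above. Of 11, 3 were called higher and 2 lower, against 20.8% and 20.3% of all tested genes, with a median log2 fold change of 0.05. The highest was *Nod1*, a cytosolic sensor of bacterial peptidoglycan fragments, with 628 ± 60.0 normalized counts in control and 816.5 ± 13.1 in PHGDH-deficient TEMs (SD, n = 4 each, log2 fold change 0.38, limma adjusted p = 1.15e-05). *Nod2*, a relative with the same kind of ligand, rose by 0.29 (limma adjusted p = 0.000474), and *Aim2*, a sensor of cytosolic DNA, by 0.12 (limma adjusted p = 0.00124). The lowest was *Dhx58*, a regulator of the RIG-I-like RNA sensors (-0.16, limma adjusted p = 0.000378), and *Sting1*, the adaptor of cytosolic DNA sensing, was also lower (-0.11, limma adjusted p = 0.0446), with overlapping samples. *Ddx58*, *Ifih1*, *Mavs*, *Cgas*, *Zbp1* and *Nlrp3* were not called.

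Of the markers of other cells, *Cd79b*, listed here as a B cell marker, fell by 0.63 on the log2 scale (limma adjusted p = 2.9e-05), while *Ms4a1* lay near 1 normalized count in PHGDH-deficient TEMs. *S100a8*, listed as a granulocyte marker, rose by 0.23 (limma adjusted p = 0.0044), and the other 7 markers of that list are not listed in the table either. The 4 dendritic cell markers in the table summed to between 8.27 and 30.5 normalized counts in control TEMs and between 30.1 and 44.7 in PHGDH-deficient TEMs, and the only one tested, *Zbtb46*, was not called (limma adjusted p = 0.0642). The part of these transcripts in the values of *Cd14* and the receptors was not tested.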
